A study of Mus musculus with 6 samples.

Results

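The genes described here are 8 genes of aldosterone-sensitive sodium transport, measured in the kidney mRNA of mice with hyperuricemia-related chronic kidney disease. They were chosen by name for their roles, with earlier results of these data known. Scnn1a, Scnn1b and Scnn1g encode the α, β and γ subunits of the epithelial sodium channel ENaC. Nr3c2 encodes the mineralocorticoid receptor and Hsd11b2 the enzyme that protects this receptor. Sgk1, Nedd4l and Tsc22d3 encode proteins that act between the receptor and the channel. All 8 were found among the 55450 genes of the count table and all 8 passed the filter on low counts, which left 16592 genes. The animals were wild-type C57BL/6J male mice, bought at an age of 7 weeks and kept for 1 week before the experiment, and no mouse carried an engineered allele. The day-21 group received adenine, at 0.16 g/kg, and potassium oxonate, which raises uric acid, at 2.4 g/kg, by gavage once a day until day 21. The day-0 group is the control, and its labels name 20% PEG as what these mice were given. The paper describes each group as killed on its own day. Age at death, gavage and vehicle thus cannot be told apart from the 2 compounds. Each group of the study held 6 mice, and kidney RNA of 3 mice per group was sequenced, 1 library per mouse.

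Aldosterone is the adrenal steroid that sets how much sodium the last parts of the nephron take back. It enters the principal cells of the connecting tubule and collecting duct, binds the mineralocorticoid receptor, and the receptor then acts on DNA to switch on target genes. The best known early target is Sgk1, a kinase that phosphorylates the ubiquitin ligase Nedd4-2, the product of Nedd4l, and so keeps that ligase from removing ENaC from the cell surface. The receptor binds cortisol and corticosterone as well as aldosterone, and 11β-hydroxysteroid dehydrogenase type 2, the product of Hsd11b2, inactivates these glucocorticoids inside the cell. Sgk1 and Tsc22d3 are also targets of the glucocorticoid receptor in many cell types outside the collecting duct, and Nedd4l and Nr3c2 are transcribed in other cells too, so their values here are those of the whole kidney.

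The steroid receptors bind DNA as pairs on an inverted repeat of the hexamer TGTTCT, which reads AGAACA on the other strand, and this hexamer was searched on both strands of the 250 bases before each start site in the RefSeq promoter table (GRCm38.p6). That table held 12 such windows for 5 of the 8 genes, and 4 of the 12 held the hexamer, beside 16.1% of all 32851 windows in the table. Sgk1 has 6 windows, of which 3 held the hexamer and 3 did not, and Tsc22d3 has 3, of which 1 held it, while Scnn1g, Scnn1b and Nr3c2 have 1 window each, with no match. For Sgk1 the window with the most matches is shown, and for Tsc22d3 the only one with a match, so that they were picked for the hexamer. Sgk1 and Tsc22d3 are shown as the genes that fell most, beside the neighbouring channel subunits Scnn1g and Scnn1b, which did not fall. With genes picked by their change, and the Sgk1 and Tsc22d3 windows by the hexamer, this set cannot relate one to the other. Capitals mark each hexamer match, and the windows of Scnn1g and Scnn1b are in lower case throughout because no match was found in them. The Sgk1 window lies at chr10:21993640-21993889 on the plus strand, and the Tsc22d3 stretch is the part before the first exon, 113 bases at chrX:140600660-140600772 on the minus strand. The Scnn1g window is chr7:121734229-121734478 and the Scnn1b window chr7:121864788-121865037, both on the plus strand.
Sgk1: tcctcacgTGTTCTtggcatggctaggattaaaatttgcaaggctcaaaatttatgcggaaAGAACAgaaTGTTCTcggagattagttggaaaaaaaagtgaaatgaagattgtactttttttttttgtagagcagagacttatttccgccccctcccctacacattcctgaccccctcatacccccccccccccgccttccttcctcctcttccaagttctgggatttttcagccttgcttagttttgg
Tsc22d3: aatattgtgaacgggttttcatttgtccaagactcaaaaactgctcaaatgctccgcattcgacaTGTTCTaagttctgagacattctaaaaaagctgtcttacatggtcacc
Scnn1g: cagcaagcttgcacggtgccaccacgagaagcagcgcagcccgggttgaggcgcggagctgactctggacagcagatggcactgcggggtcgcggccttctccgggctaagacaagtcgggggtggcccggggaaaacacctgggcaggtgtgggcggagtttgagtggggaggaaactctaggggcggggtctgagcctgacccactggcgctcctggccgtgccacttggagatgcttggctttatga
Scnn1b: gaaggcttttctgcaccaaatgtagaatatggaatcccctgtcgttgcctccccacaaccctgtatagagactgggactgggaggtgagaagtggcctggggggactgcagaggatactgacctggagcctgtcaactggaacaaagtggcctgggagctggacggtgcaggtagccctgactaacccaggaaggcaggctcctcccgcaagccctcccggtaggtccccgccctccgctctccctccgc

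The Sgk1 window holds the complete inverted repeat, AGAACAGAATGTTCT, at chr10:21993701-21993715. It starts 189 bases before the start site at position 21993890 and 965 bases before the next annotated start site of Sgk1, at position 21994666. The pattern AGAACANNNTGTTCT, with any base at N, occurred in 3 of the 32851 windows (0.00913%), and the Sgk1 window was 1 of these 3. The Tsc22d3 stretch has a single hexamer, 185 bases before the start site at position 140600522. Between the printed stretch and that start site lie 137 bases of annotated exon, which are not printed. These matches describe letters in windows that were picked for them, and receptor binding was not measured.

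At the mRNA level, Sgk1 fell to 39.1% and Tsc22d3 to 44.4% of the day-0 level, whereas none of the 3 ENaC subunits, the receptor or its protecting enzyme changed by more than 1.5-fold. A gene was counted as a DEG (differentially expressed gene) when edgeR's quasi-likelihood test gave an adjusted p under 0.05 over all genes tested and the fold exceeded 1.5. By this rule 2 of the 8 genes were lower on day 21, where 15.5% of all genes tested were lower. No member was a higher DEG, where 19.6% of all genes tested were higher. For that count of 0, DESeq2 and limma-voom also gave 0, and 1 gene, Scnn1b, was higher at an unadjusted p under 0.05. At an adjusted p under 0.05 and any fold, 4 of the 8 were lower (21.7% of all genes) and 1 was higher (23.9% of all genes). The median log2 fold change of the 8 genes was -0.22, and that of all genes tested was 0.03. The 3 mice of one group lay wholly above or below the 3 of the other in 4 of the 8 genes, and in 57.1% of all genes tested.

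The libraries held between 10963849 and 14333311 counts, and 3 counts, the least taken as seen, equalled between 0.179 and 0.309 CPM (a count scaled to a common library total, here with the TMM method). The counts behind the member values ran from 130 for Nr3c2 in 1 mouse to 3637 for Hsd11b2 in another. The defining kidney transcripts were abundant, with Umod of the thick ascending limb at a mean of 4670 CPM on day 0 and Slc34a1 of the proximal tubule at 4862 CPM. Mitochondrially encoded genes took 9.39% to 9.86% of the counts on day 0 and 3.82% to 4.42% on day 21. In these whole-tissue libraries, fewer cells of a type and less RNA per cell cannot be told apart.

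**Figure D1:**
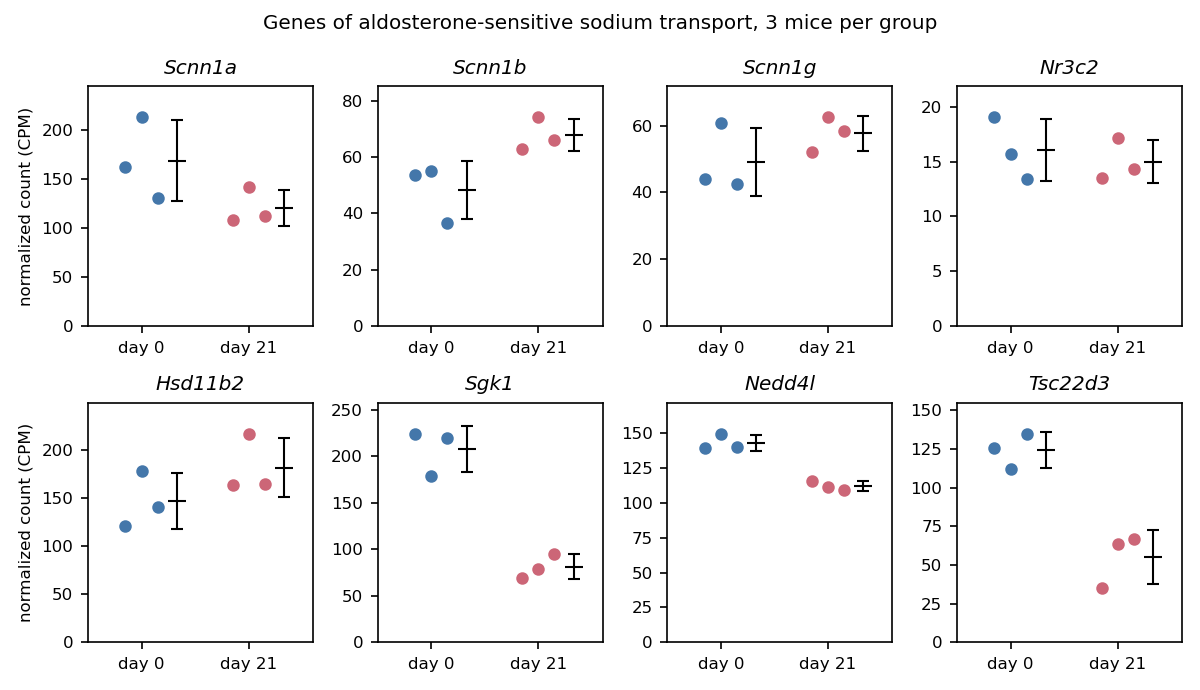
Normalized count (CPM, TMM-scaled, linear axis from 0) of each of the 8 genes in each mouse, day 0 in blue and day 21 in red, with 1 point per mouse and the mean ± SD of the 3 mice in black. The day-21 points of Sgk1 (69.1 to 95.6) and Tsc22d3 (34.9 to 66.9) lie far below the day-0 points, those of Nedd4l a little below, and those of Scnn1b above, while in the other 4 genes the groups overlap.

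Of the 3 subunits of ENaC, α was lower and β higher on day 21 at an adjusted p under 0.05, both by less than 1.5-fold, and γ did not pass the test. ENaC is the sodium channel of the apical membrane that amiloride blocks, built from 1 copy of each subunit. Scnn1a, for the α subunit, lies at chr6:125320659-125344943 (GRCm38, plus strand) and its longest annotated transcript has 12 exons. Its normalized counts were 162, 213 and 131 CPM in the day-0 mice and 108, 142 and 112 CPM in the day-21 mice. The highest day-21 mouse lay above the lowest day-0 mouse, so the groups overlapped. Scnn1a was 1.40-fold lower on day 21 (log2 fold change -0.48, SE 0.18, 95% confidence interval -0.88 to -0.09, edgeR adjusted p = 0.0471), which is under the fold limit for a DEG. That p depended on single mice and on the scaling. It exceeded 0.05 without day 0 replicate 2 (log2 fold change -0.28, edgeR adjusted p = 0.182), day 0 replicate 1 (edgeR adjusted p = 0.0522), day 21 replicate 1 (edgeR adjusted p = 0.148) or day 21 replicate 3 (edgeR adjusted p = 0.147). With upper quartile scaling the log2 fold change was -0.40 (edgeR adjusted p = 0.0983), and with library size alone it was -0.086 (edgeR adjusted p = 0.691). Conversely, without day 0 replicate 3, the lowest of its group, the log2 fold change was -0.66 and Scnn1a counted as a DEG (edgeR adjusted p = 0.00991). It also counted as a DEG without day 21 replicate 2 (log2 fold change -0.61, edgeR adjusted p = 0.0335).

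Scnn1b, for the β subunit, moved in the other direction. The gene lies at chr7:121865038-121918514 (GRCm38, plus strand) with 13 exons. Its normalized counts were 53.5, 55.2 and 36.5 CPM on day 0 and 63.1, 74.2 and 66.2 CPM on day 21. Every day-21 mouse lay above every day-0 mouse, with the third day-0 mouse well under the other two of its group. The level was 1.40-fold higher on day 21 (log2 fold change 0.48, SE 0.16, 95% confidence interval 0.13 to 0.83, edgeR adjusted p = 0.0287), also under the fold limit. Without day 0 replicate 3 the log2 fold change was 0.30 (edgeR adjusted p = 0.0734), and without day 0 replicate 2 it was 0.59 and past the fold limit (edgeR adjusted p = 0.024). The p also exceeded 0.05 without day 21 replicate 2 (edgeR adjusted p = 0.101) or day 21 replicate 3 (edgeR adjusted p = 0.0661).

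Scnn1g, for the γ subunit, is the neighbour of Scnn1b on the same strand, at chr7:121734479-121768475 with 13 exons. The end of Scnn1g and the start of Scnn1b are 96562 bases apart, with 1 other annotated gene, Gm44740, between them. Normalized counts of Scnn1g were 44.1, 60.8 and 42.5 CPM on day 0 and 52.1, 62.5 and 58.5 CPM on day 21. The highest day-0 mouse lay above 2 of the 3 day-21 mice, so the groups overlapped. Scnn1g differed by a log2 fold change of 0.23 (SE 0.15, 95% confidence interval -0.11 to 0.56, edgeR adjusted p = 0.241), an interval that holds both no change and a 1.48-fold rise. The log2 fold change was 0.11 without day 0 replicate 3, and 0.41 without day 0 replicate 2 (edgeR adjusted p = 0.0251).

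The ratio of the subunits' counts within each mouse does not depend on how libraries are scaled. The ratio of Scnn1b to Scnn1a counts was 0.331, 0.259 and 0.278 on day 0 and 0.583, 0.524 and 0.589 on day 21. Every day-21 mouse had a higher β to α ratio than every day-0 mouse, and the spread within each group was small against the gap. The ratio was 1.96-fold higher on day 21 (log2 difference 0.97, two-sided exact permutation test with n = 3 per group, p = 0.1, and 0.15 after Benjamini-Hochberg adjustment over the 6 ratios tested). A p of 0.1 is the smallest that 3 mice against 3 can give. With each mouse left out in turn, the log2 difference stayed between 0.89 and 1.07.

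The γ to α ratio moved in the same direction as the β to α ratio, with which it shares the Scnn1a counts. The ratio of Scnn1g to Scnn1a counts was 0.272, 0.285 and 0.324 on day 0 and 0.482, 0.441 and 0.520 on day 21. Again the groups did not overlap, and the ratio was 1.64-fold higher on day 21 (log2 difference 0.71, two-sided exact permutation test, n = 3 per group, p = 0.1, adjusted 0.15). Between the 2 subunits that lie side by side, the ratio of Scnn1g to Scnn1b counts was 0.824, 1.10 and 1.16 on day 0 and 0.826, 0.842 and 0.883 on day 21. Here the first day-0 mouse lay under all 3 day-21 mice and the other two above them (log2 difference -0.26, two-sided exact permutation test, n = 3 per group, p = 0.4, adjusted 0.48). Per kilobase of exon, the mean β to α ratio was 0.454 on day 0 and 0.887 on day 21, and the mean γ to α ratio was 0.406 and 0.665.

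**Figure D2:**
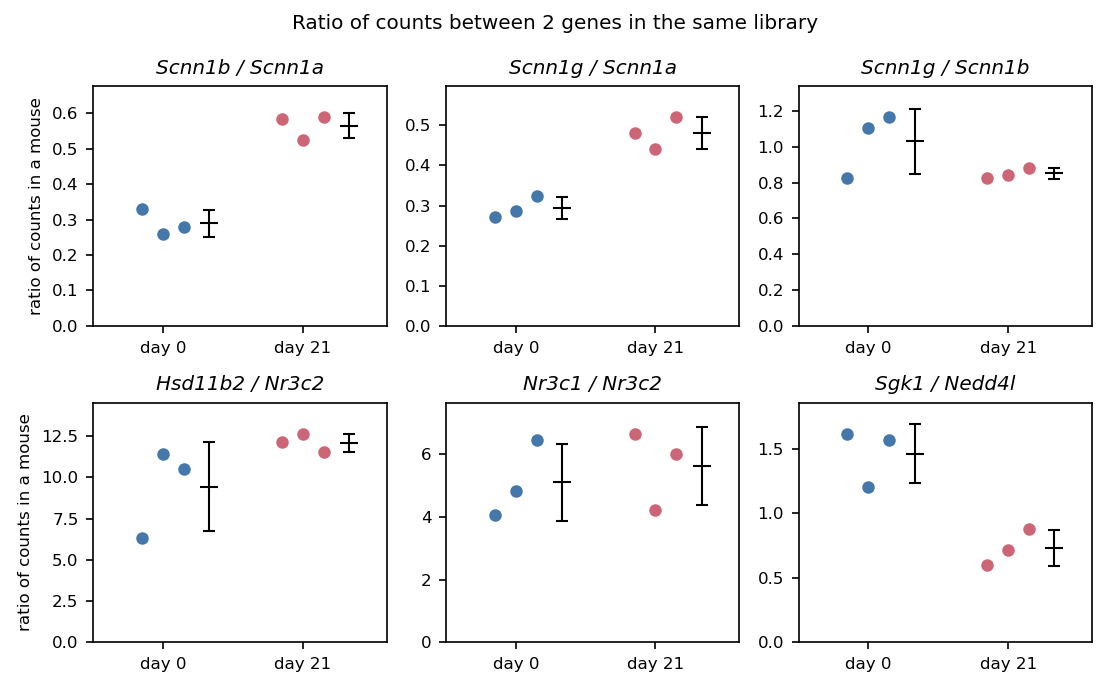
Ratio of the counts of 2 genes in the same mouse (linear axis from 0), day 0 in blue and day 21 in red, with 1 point per mouse and the mean ± SD of 3 mice in black. The ratios of Scnn1b and of Scnn1g to Scnn1a are higher and that of Sgk1 to Nedd4l is lower in all 3 day-21 mice than in any day-0 mouse, whereas Scnn1g to Scnn1b and Nr3c1 to Nr3c2 overlap.

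Nr3c2, the mineralocorticoid receptor, had the lowest level of the 8 genes and differed by less than the spread between mice. It lies at chr8:76899442-77245012 (GRCm38, plus strand), and its longest transcript has 9 exons. Its normalized counts were 19.1, 15.7 and 13.4 CPM on day 0 and 13.5, 17.2 and 14.3 CPM on day 21. The day-21 mice lay within the range of the day-0 mice. The log2 fold change was -0.09 (SE 0.17, 95% confidence interval -0.48 to 0.29, edgeR adjusted p = 0.689), and without day 0 replicate 1 it was 0.02. An opposite-strand gene, Gm10649, shares 3.82% of the exon bases of Nr3c2 but had only between 1 and 5 counts per mouse.

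Nr3c1, the glucocorticoid receptor, was measured beside it because both receptors act on the same DNA elements. Normalized counts of Nr3c1 were 76.9, 75.2 and 86.2 CPM on day 0 and 89.6, 72.4 and 85.7 CPM on day 21, with overlapping groups (log2 fold change 0.06, SE 0.12, edgeR adjusted p = 0.728). The ratio of Nr3c1 to Nr3c2 counts was 4.04, 4.80 and 6.43 on day 0 and 6.63, 4.21 and 5.98 on day 21. These ratios overlapped and their log2 difference was 0.14 (two-sided exact permutation test, n = 3 per group, p = 0.7, adjusted 0.7), a value that became -0.01 without day 0 replicate 1.

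Hsd11b2 had the highest level of the 8 genes per length of exon, with the exons of all annotated transcripts pooled. The gene is short, at chr8:105518755-105523988 (GRCm38, plus strand) with 5 exons. Its normalized counts were 121, 178 and 141 CPM on day 0 and 163, 217 and 165 CPM on day 21. The highest day-0 mouse lay above 2 of the 3 day-21 mice. Hsd11b2 did not pass the test (log2 fold change 0.31, SE 0.16, 95% confidence interval -0.06 to 0.68, edgeR adjusted p = 0.152). The log2 fold change was 0.16 without day 0 replicate 1 or without day 21 replicate 2, and 0.47 without day 0 replicate 2 (edgeR adjusted p = 0.043). The ratio of Hsd11b2 to Nr3c2 counts, the enzyme against the receptor it protects, was 6.34, 11.4 and 10.5 on day 0 and 12.1, 12.6 and 11.5 on day 21. Each day-21 ratio was above each day-0 ratio, but the first day-0 mouse set much of the difference. The log2 difference was 0.40 (two-sided exact permutation test, n = 3 per group, p = 0.1, adjusted 0.15) and 0.14 without that mouse.

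Sgk1, the aldosterone-induced kinase, showed the largest change of the 8 genes. It spans chr10:21882184-21999903 (GRCm38, plus strand) with 13 annotated transcripts, the longest of 14 exons, and the Sgk1 window shown lies inside this span. The normalized counts were 224, 179 and 220 CPM on day 0 and 69.1, 79.1 and 95.6 CPM on day 21. The highest day-21 mouse lay far under the lowest day-0 mouse, and the groups did not overlap. Sgk1 fell 2.56-fold, to 39.1% of its day-0 level (log2 fold change -1.35, SE 0.15, 95% confidence interval -1.68 to -1.03, edgeR adjusted p = 4.47e-05). Over 18 alternatives the log2 fold change lay between -1.48 and -0.97, and the adjusted p was at most 4.5e-04.

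Tsc22d3 encodes GILZ, the glucocorticoid-induced leucine zipper protein, which promotes the surface expression of ENaC and which both corticosteroid receptors induce. It lies on the minus strand at chrX:140539528-140600659 (GRCm38). The normalized counts were 126, 112 and 135 CPM on day 0 and 34.9, 63.7 and 66.9 CPM on day 21. The first day-21 mouse was the lowest, and all 3 lay under every day-0 mouse. Tsc22d3 fell 2.25-fold, to 44.4% of its day-0 level (log2 fold change -1.17, SE 0.21, 95% confidence interval -1.64 to -0.70, edgeR adjusted p = 0.0013). Over 18 alternatives its log2 fold change lay between -1.33 and -0.78, with an adjusted p of at most 0.0127.

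Nedd4l, for the ubiquitin ligase that Sgk1 restrains, differed by a small amount that was large against the spread between mice. It spans chr18:64887705-65217828 (GRCm38, plus strand) and has 34 annotated transcripts, the longest of 30 exons. Its normalized counts were 139, 149 and 140 CPM on day 0 and 116, 111 and 109 CPM on day 21. The groups did not overlap, and the SD was 5.71 CPM on day 0 and 3.4 CPM on day 21. Nedd4l was 1.28-fold lower on day 21 (log2 fold change -0.35, SE 0.10, 95% confidence interval -0.57 to -0.13, edgeR adjusted p = 0.015), under the fold limit for a DEG. The adjusted p exceeded 0.05 without day 21 replicate 2 (edgeR adjusted p = 0.054) or day 21 replicate 3 (edgeR adjusted p = 0.0827) and with upper quartile scaling (edgeR adjusted p = 0.0516), and under scaling by library size alone the log2 fold change was 0.04. An opposite-strand gene, A330084C13Rik, shares 1.57% of its exon bases and had between 18 and 31 counts per mouse.

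The kinase was also set against the ligase it restrains. The ratio of Sgk1 to Nedd4l counts was 1.62, 1.20 and 1.57 on day 0 and 0.597, 0.713 and 0.875 on day 21. There were more Sgk1 than Nedd4l counts in every day-0 mouse and fewer in every day-21 mouse. These counts are not adjusted for exon length. Per kilobase of exon, the mean ratio was 5.26 on day 0 and 2.62 on day 21. By that measure Sgk1 stood above Nedd4l in every mouse, with the lowest ratio, 2.15, on day 21. The log2 difference was -1.01 (two-sided exact permutation test, n = 3 per group, p = 0.1, adjusted 0.15), and between -1.15 and -0.88 with each mouse left out.

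**Figure D3:**
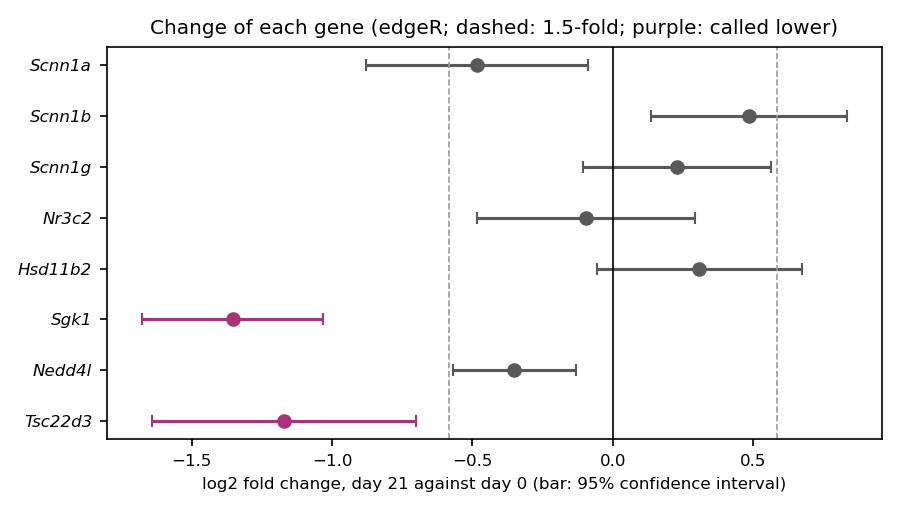
Log2 fold change of each of the 8 genes, day 21 against day 0, from edgeR, with the 95% confidence interval as a bar and dashed lines at a 1.5-fold change. The intervals of Sgk1 (-1.68 to -1.03) and Tsc22d3 (-1.64 to -0.70), in purple, lie wholly past the lower dashed line, while those of Scnn1g, Nr3c2 and Hsd11b2 include 0.

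The scaling of the libraries mattered for the genes with small differences. With library size alone, the all-gene median of the log2 fold change rose by 0.39, to 0.42. Under that scaling Nr3c2 had a log2 fold change of 0.30 and Nedd4l 0.04, both with the other sign, Scnn1a was close to 0 at -0.086, and Scnn1b, Scnn1g and Hsd11b2 became higher DEGs. Relative to the median of all genes, the log2 fold change of Sgk1 was -1.38 to -1.39 and that of Tsc22d3 -1.20 under the 4 scalings tried. In the same terms Scnn1a lay at -0.51 to -0.52, Nedd4l at -0.38, Scnn1b at 0.45 to 0.46 and Hsd11b2 at 0.27 to 0.28.

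Levels were compared between genes per kilobase of exon, with the exons of all annotated transcripts pooled. This length was 1840 bases for Hsd11b2, the same as its longest transcript. For Sgk1 it was 4903 bases, against 3096 in the longest transcript, and for Nedd4l 17659, against 7787. The order of the genes is given for the pooled length alone and may differ with another length. On day 0, Hsd11b2 stood at 79.7 ± 15.9 CPM per kb (SD, n = 3), above every value of any other member. Sgk1 (42.4 ± 5.04 CPM per kb) and Scnn1a (40.8 ± 10.03 CPM per kb) followed and overlapped each other, and Tsc22d3 (28.7 ± 2.63 CPM per kb) lay just under the lowest Scnn1a value. Scnn1b (18.4 ± 3.94 CPM per kb) and Scnn1g (16.4 ± 3.4 CPM per kb) did not differ beyond their spread. By the pooled length, Nedd4l (8.09 ± 0.324 CPM per kb) and Nr3c2 (2.48 ± 0.440 CPM per kb) were the lowest, each apart from its neighbours.

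On day 21 the order among the middle genes was another one. Hsd11b2 was still the highest, at 98.8 ± 16.6 CPM per kb. Scnn1a (29.2 ± 4.4 CPM per kb) now overlapped Scnn1b (25.8 ± 2.17 CPM per kb), and both lay above Scnn1g (19.3 ± 1.75 CPM per kb). Sgk1 (16.6 ± 2.72 CPM per kb) overlapped Scnn1g above it and Tsc22d3 (12.7 ± 4.06 CPM per kb) below it. Nedd4l (6.34 ± 0.193 CPM per kb) and Nr3c2 (2.32 ± 0.298 CPM per kb) remained the lowest by the pooled length.

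The collecting duct principal cell, in which ENaC works, was followed by 7 markers: the water channels Aqp2, Aqp3 and Aqp4, the vasopressin receptor Avpr2, the pump subunit Fxyd4, and the transcription factors Gata3 and Elf5. Of these, the 3 water channels fell (42.9%, where 15.5% of all genes tested were lower). The other 4 did not pass as DEGs, and the median log2 fold change of the 7 markers was -0.31. Their summed level ran from 472 to 653 CPM on day 0 and from 237 to 261 CPM on day 21, and none was at 0. The log2 fold changes were -1.17 for Aqp2, -1.59 for Aqp3 and -2.62 for Aqp4, against -0.24 for Avpr2, -0.31 for Fxyd4, 0.51 for Gata3 and 0.31 for Elf5. Thus the list itself was not uniform.

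Each of the 8 genes was set against the mean log2 CPM of these 7 markers in the same mouse, as a description with no test. The β and γ subunits and Hsd11b2 stood higher against the markers on day 21, by 1.17 for Scnn1b, 0.91 for Scnn1g and 0.98 for Hsd11b2 on the log2 scale, and in each the groups did not overlap. Sgk1 and Tsc22d3 stood lower, with differences of -0.70 and -0.57 on the log2 scale, also with groups apart. For Tsc22d3 the groups nearly met, with 1.599 in the highest day-21 mouse and 1.619 in the lowest day-0 mouse. In Scnn1a (0.20), Nr3c2 (0.57) and Nedd4l (0.31) the groups overlapped. The same marker mean was subtracted from all 8 genes, and it includes Aqp2, Aqp3 and Aqp4, which fell. In CPM alone the groups of Scnn1g and Hsd11b2 overlapped, and neither gene passed the test (edgeR adjusted p = 0.241 and 0.152). The share of all genes with groups apart on this measure was not computed. Against the median of the markers every difference was lower by 0.33, and Scnn1a (-0.14) and Nedd4l (-0.023) changed sign.

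**Figure D4:**
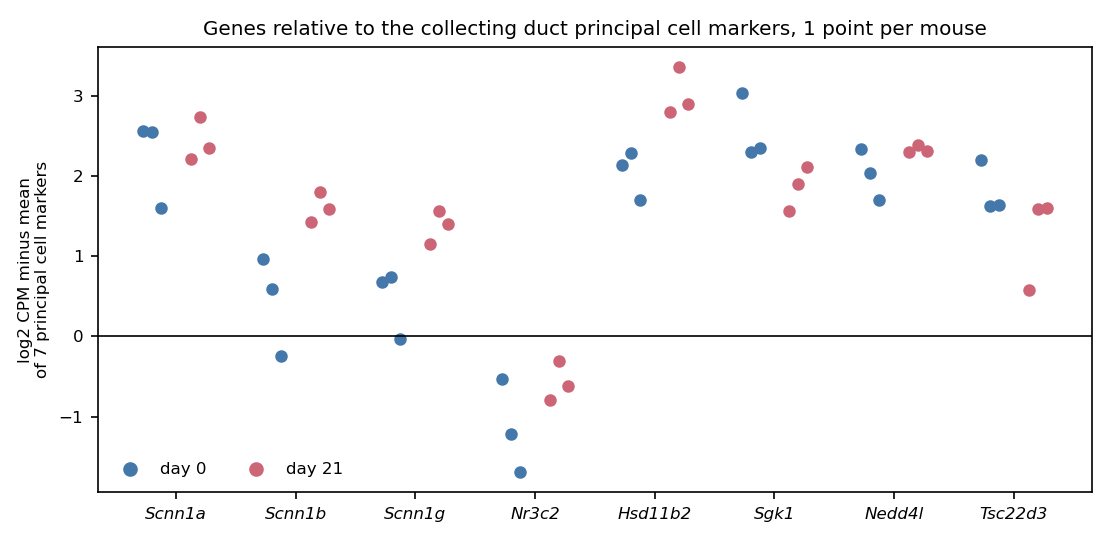
Log2 CPM of each of the 8 genes minus the mean log2 CPM of 7 collecting duct principal cell markers in the same mouse, with 1 point per mouse, day 0 in blue and day 21 in red. The day-21 points of Scnn1b, Scnn1g and Hsd11b2 lie above their day-0 points, and those of Sgk1 and Tsc22d3 below them.

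Markers of other cells moved with the groups as well. The counts given are of DEGs, where 15.5% of all genes tested were lower and 19.6% higher. In the neighbouring segments, 5 of 6 markers of the distal convoluted and connecting tubule fell (summed level 2693 to 3653 CPM on day 0 and 1219 to 1604 CPM on day 21), as did 3 of 6 intercalated cell markers (296 to 478 and 202 to 258 CPM) and 3 of 5 thick ascending limb markers, while 1, Cldn16, rose (5721 to 7101 and 3767 to 4238 CPM). All 7 proximal tubule markers fell (10066 to 11137 and 1842 to 2273 CPM). All 6 tested leukocyte markers (93.7 to 106 and 287 to 297 CPM), all 5 fibroblast markers (147 to 250 and 818 to 1596 CPM) and all 5 injured tubule markers (214 to 292 and 2512 to 2769 CPM) rose. Of the 5 endothelial markers 1 fell (349 to 399 and 182 to 303 CPM), and of the 4 podocyte markers 3 fell (342 to 552 and 241 to 290 CPM). No marker was at 0 in all mice, and the part of these shifts in the values of the 8 genes was not tested.

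The other genes of the pathway were 51 genes in 5 lists, chosen with earlier results of these data known. Of the 51 genes, 50 were tested. Of these, 5 (10%) were higher and 20 (40%) lower DEGs, where 19.6% of all genes tested were higher and 15.5% lower, and their median log2 fold change was -0.45. Kcnmb2, a potassium channel subunit, had no count in any mouse and was not tested.

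Among 11 other genes that corticosteroids are known to induce, 8 fell (72.7%, where 15.5% of all genes tested were lower), 1 rose and 2 did not pass, with a median log2 fold change of -1.10. The number that fell was 6 to 8 over 18 alternatives. This list was chosen with earlier results of these data known, so its share is a description. Among the cell marker lists the share of lower genes ran from 0% (leukocyte, fibroblast and injured tubule) to 100% (proximal tubule). It was 83.3% for the distal convoluted and connecting tubule. Fkbp5, a co-chaperone of the steroid receptors, was at 517, 444 and 283 CPM on day 0 and at 134, 94.1 and 153 CPM on day 21, with no overlap (log2 fold change -1.71, SE 0.23, edgeR adjusted p = 2.15e-04). Zbtb16, a transcription factor and a sensitive corticosteroid target, was at 65.7, 60.6 and 80.2 CPM on day 0 and at 19.2, 7.4 and 17.7 CPM on day 21, with no overlap (log2 fold change -2.23, SE 0.29, edgeR adjusted p = 1.53e-04). Lower too were Klf9, a transcription factor (log2 fold change -1.62), Usp2, a deubiquitinase that can act on ENaC (-1.66), Pdk4, a brake on pyruvate use (-2.27), and Ndrg2 (-1.10). Errfi1 (-0.78) and Dusp1 (-0.74) fell by less, and neither was a DEG with library size alone (-0.39 and -0.35) or at the stricter limits of 0.01 for the adjusted p and 2 for the fold. Dusp1 was also no DEG without day 0 replicate 3 (-0.53).

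The exceptions among the corticosteroid-induced genes were 3 in number. Edn1, for endothelin-1, a peptide that inhibits ENaC and is induced by many other stimuli, rose from 2.01, 2.88 and 3.19 CPM on day 0 to 26.4, 53.3 and 42.8 CPM on day 21, with no overlap (log2 fold change 3.91, SE 0.29, edgeR adjusted p = 5.43e-06). Per1, a clock gene, had a log2 fold change of -0.43 (edgeR adjusted p = 0.219). Cnksr3, a scaffold that binds Sgk1 and ENaC, had one of 0.38 (edgeR adjusted p = 0.156) and passed as a higher DEG without day 0 replicate 1 (0.68). Hsd11b1, the enzyme that regenerates active glucocorticoid, had a log2 fold change of -0.45 (edgeR adjusted p = 0.307).

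ENaC is opened by proteases that cut its α and γ subunits, and the 9 genes of this list went both ways. Of the 9, 4 were higher DEGs (44.4%, where 19.6% of all genes tested were higher). Another 2 were lower (22.2%, where 15.5% of all genes tested were lower). Prss8, for prostasin, fell from 338 ± 53.0 to 180 ± 10.02 CPM (log2 fold change -0.91), and Furin fell too (-0.64). St14, for matriptase, rose (0.69), as did Tmprss4 (2.35), whose level was low, at 0.466 ± 0.465 CPM on day 0 and 2.55 ± 1.01 CPM on day 21. The protease inhibitors Spint2 (0.78) and Serpine2 (2.34), the latter known as nexin-1, rose. The log2 fold changes of Plau (0.43), Plat (0.24) and Spint1 (0.07) were under the limits for a DEG.

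Among 13 genes of the SGK kinases, their activators and the ubiquitination of ENaC, 3 fell (23.1%, where 15.5% of all genes tested were lower) and none rose, a share of lower genes near that of all genes. Sgk2, a relative of Sgk1 expressed in the proximal tubule, fell 3.91-fold (log2 fold change -1.97), while Sgk3 did not pass the test (0.12, edgeR adjusted p = 0.617). Mtor, the kinase core of the complex that activates Sgk1, fell (-1.54), and its partners Rictor (-0.45), Mlst8 (0.09) and Mapkap1 (-0.23) were not DEGs. Ndfip1, an adaptor of the Nedd4 ligases, fell (-0.69). Nedd4, the ligase most like the product of Nedd4l, was higher by a log2 fold change of 0.55 (edgeR adjusted p = 0.00395), just under the fold limit, whereas the log2 fold change of Nedd4l was -0.35.

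The WNK kinase pathway sets the sodium chloride cotransporter upstream of the ENaC segments. Of its 7 genes listed here, 4 fell (57.1%, where 15.5% of all genes tested were lower). These were Wnk1 (log2 fold change -0.87), Wnk4 (-0.93), the ubiquitin ligase adaptor Klhl3 (-1.53) and the cotransporter gene Slc12a3 itself (-1.03), while Stk39, for the kinase SPAK, stood at 0.44 and was not a DEG. Of 8 tested genes of the sodium pump and the distal potassium channels, 3 fell (37.5%, against 15.5% of all genes tested). They were Fxyd2 (-0.99), Kcnj16 (-0.61) and the potassium channel Kcnj1 (-0.85), which carries the potassium secreted as ENaC takes up sodium. The pump subunit Atp1b1 (-0.53) was under the fold limit.

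**Figure D5:**
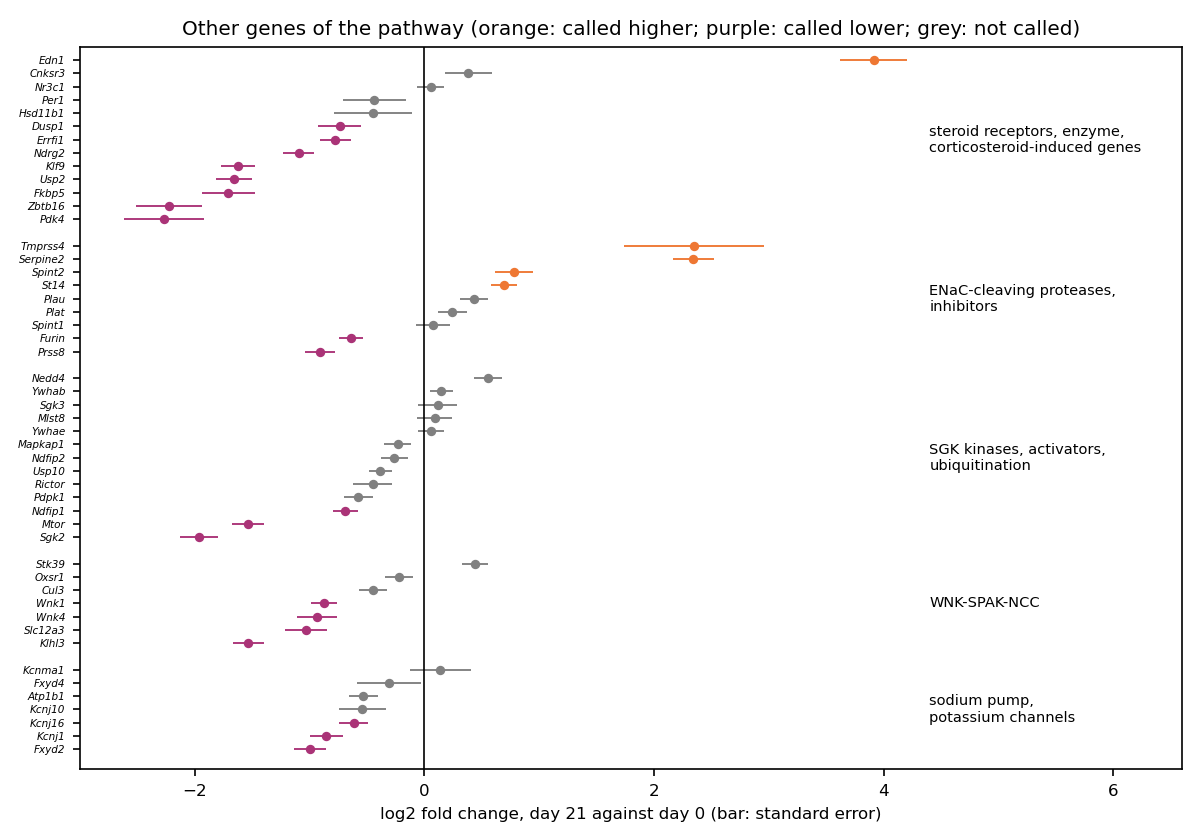
Log2 fold change, day 21 against day 0, of the tested genes of the 5 pathway lists, apart from 1 not reported here, with the standard error as a bar, sorted within each list, higher DEGs in orange, lower DEGs in purple and the others in grey. In the corticosteroid list 8 genes in purple lie to the left and Edn1 far to the right, and in the protease list 4 genes are higher and 2 lower.

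The genes whose profile over the 6 mice was most like that of each member were found by the Euclidean distance of log2 CPM, each gene centred on its mean, among 13121 genes with a mean of at least 50 counts. For Sgk1 these were Gm13068 (distance 0.173) and Pim3 (0.290), and for Tsc22d3 Pim3 (0.395) and Egfl6 (0.473). Pim3, a serine/threonine kinase, was thus among the nearest to both of the genes that fell. The nearest to Scnn1a were Gpr162 (0.1002) and Chchd7 (0.149), to Scnn1b Gm3362 (0.110) and Pusl1 (0.118), and to Scnn1g Rfc2 (0.0858) and Tma7 (0.134). Nr3c2 was nearest to Fiz1 (0.106) and Zbtb2 (0.154), Hsd11b2 to Wdyhv1 (0.0822) and Adprhl2 (0.163), and Nedd4l to Ganab (0.0340) and Icmt (0.0391). None of the 8 genes was among the 2 nearest of another.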

How the data were processed

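Kidney mRNA of 3 mice on day 0 and 3 mice on day 21 was compared, with each library assigned to its group by its own label. The authors deposited raw counts per gene from paired-end reads, without normalization. The submitters' processing notes name TopHat and mm10, and the counting program and its strand setting are not given in the sources used here. All 55450 identifiers matched GENCODE mouse release 21, no column was left unmapped, and 28536 genes had no count in any mouse. The groups held separate mice, and the p-values cover the spread between these 6 mice. Totals ran from 10963849 to 14333311, and detection limits reflect counting error alone. The libraries of a group differed by more than sampling noise, with a chi-square per gene of 7.17 to 25.7.

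The fit was made with edgeR 4.0.16 in R 4.3.3 (filterByExpr at 10 counts and a total of 15, TMM scaling, quasi-likelihood test without a replicate block, Benjamini-Hochberg adjustment over 16592 genes). DEGs passed 0.05 in adjusted p and 1.5 in fold. CPM values used TMM-scaled library sizes. Ratios of counts, with 0.5 added to each for the log2 difference, were compared by exact permutation tests in Python 3.11.15. Alternatives were other scalings and filters, DESeq2 1.42.0, limma-voom (limma 3.58.1), other limits for DEGs, libraries without mitochondrially encoded genes or the 20 highest genes, a replicate block, each mouse left out, 5 in place of 0.5 added to the counts, and the median of the principal cell markers. The fits were tested on simulated data with few changed genes, as many higher as lower, and changes well over 1.5-fold. That setting does not cover the choice of scaling or differences under 1.5-fold. Named genes were the 8 members, the genes of the pathway and marker lists, and the 2 nearest profiles of each member. The members and lists were chosen with earlier results of these data known. Promoter windows came from RefSeq (GRCm38.p6). The pathway counts include 1 gene whose own values are not reported here. Proteomics, qPCR and histology were not analysed here.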

Additional observations from a re-analysis of the deposited data

How the results depend on the processing

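Sgk1 and Tsc22d3 were lower DEGs under every one of 18 alternatives, and the count of lower members ran from 2 to 3 with each mouse left out and was 4 at any fold. The count of higher members, 0 in the fit reported, was 3 with library size alone, 1 at any fold, and 0 to 1 with each mouse left out. Higher pathway genes numbered 10 with library size alone, 3 at limits of 0.01 for the adjusted p and 2 for the fold, 8 at any fold, and 5 to 7 with each mouse left out. Lower pathway genes numbered 11, 10, 26 and 20 to 22 in the same order. Over all genes, 3249 were higher and 2572 lower. With library size alone these were 5985 and 1338, so that the share of DEGs that were higher moved from 55.8% to 81.7%, and at the stricter limits they were 1918 and 1254. Leaving out each mouse gave 2844 to 3242 higher and 2283 to 2708 lower genes. Nr3c2 changed sign with library size alone (0.30) and without day 0 replicate 1 (0.023), with -0.22 to 0.023 over the mice left out, as did Nedd4l with library size alone (0.039). The log2 ratio of Nr3c1 to Nr3c2 lay between -0.011 and 0.34 with each mouse left out, and was -0.011 without day 0 replicate 1. Against the median in place of the mean of the principal cell markers, all 8 differences were lower: Hsd11b2 stood at 0.64, Nedd4l at -0.023, Scnn1a at -0.14, Scnn1b at 0.83, Scnn1g at 0.57, Nr3c2 at 0.24, Sgk1 at -1.03 and Tsc22d3 at -0.90. The same marker value was subtracted from all 8 genes, so each moved by the same 0.33. The cause of the other shifts was not tested.

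Mice of the 2 groups share replicate numbers but are different animals, and the deviations of same-numbered mice correlated by -0.019, 0.165 and 0.0896, so that the numbers were not taken as a pairing. With a replicate block, 0 members were higher and 2 lower DEGs, Sgk1 had a log2 fold change of -1.36 and Tsc22d3 one of -1.22, and 3235 genes were higher and 2523 lower. With 3 mice per group, the interval of Nr3c2 reaches a log2 fold change of -0.48. No group had the 4 mice needed to look for a mouse far from the others, and the length of exon that reads came from was taken from the annotation.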
